A study of Mus musculus with 19 samples.

Results

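The interferon response genes described here are 35 genes that interferons induce in many cell types, chosen by symbol from the 55536 genes counted in mouse ventricle. They were measured in hearts that had lost Mpc1, a subunit of the carrier that brings pyruvate into mitochondria, and in wild-type hearts. The groups were MPC1 knockout mice 16 weeks after the knockout was induced (KO-16, 5 libraries), wild-type mice of that time (WT-16, 5 libraries), knockout mice at 8 weeks (KO-8, 4 libraries) and wild-type mice at 8 weeks (WT-8, 5 libraries). The series title gives the deletion as inducible, heart specific and made in adult mice, while the promoter that drives it, the inducing agent, the strain, the age and whether wild-type mice carried any allele or received any agent are not given in the sources used here. Whether each library is a separate animal is not stated in the labels, so p-values measure the spread between libraries, which may be technical.

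Interferons are secreted proteins that bind receptors on the cell surface and act through the kinases Jak1 and Tyk2. These kinases activate Stat2, which acts with Irf9 at the interferon-stimulated response element in gene promoters. The genes switched on include transcription factors that feed the response, sensors of foreign RNA and DNA, and effectors that block viruses. In the heart the response is best known from viral myocarditis and from the nucleic acids that damaged cells release.

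The promoter sequences of 4 of these genes show the element through which the response is known to act. They are bases 160 to 21 before the annotated start, from RefSeq on GRCm38.p6, each read on the strand of its gene, and capitals mark the interferon-stimulated response element, searched as GAAA, any 2 bases and GAAA, on either strand, with overlapping matches joined. The viral inhibitor Rsad2 is shown because it was the member that passed the test at both times, and the ubiquitin-like Isg15 and the virus tether Bst2 because they were higher in KO-16 in the fit to all libraries. The antiviral Ifit1 is shown because it had the lowest fold change at 16 weeks. The windows are chr12:26456473-26456612 on the minus strand for Rsad2, chr4:156200839-156200978 on the minus strand for Isg15, chr8:71537493-71537632 on the minus strand for Bst2 and chr19:34640729-34640868 on the plus strand for Ifit1.
Rsad2: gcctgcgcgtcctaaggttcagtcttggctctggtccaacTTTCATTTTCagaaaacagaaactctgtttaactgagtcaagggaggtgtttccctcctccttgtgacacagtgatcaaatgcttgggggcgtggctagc
Isg15: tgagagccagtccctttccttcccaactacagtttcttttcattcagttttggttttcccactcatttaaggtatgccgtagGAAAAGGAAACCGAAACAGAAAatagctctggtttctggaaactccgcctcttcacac
Bst2: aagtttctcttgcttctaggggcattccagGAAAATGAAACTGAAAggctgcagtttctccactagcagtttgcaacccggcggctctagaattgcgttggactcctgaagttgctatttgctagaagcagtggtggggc
Ifit1: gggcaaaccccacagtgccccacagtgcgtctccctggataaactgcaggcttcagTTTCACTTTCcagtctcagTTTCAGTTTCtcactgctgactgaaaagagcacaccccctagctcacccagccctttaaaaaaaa
Rsad2 holds 1 match, Ifit1 2 separate matches, Bst2 2 overlapping matches and Isg15 3 overlapping matches. The RefSeq table held 31 windows, each from 250 bases before to 50 after a start, for 26 of the 35 members, and 16 of these windows (51.6%) held the element on either strand. Among all 32851 windows of the same length 1131 (3.44%) held it. The element of the interferon gamma pathway, TTCNNNGAA, was in 7 of the 31 windows (22.6%) and in 8.3% of all windows. Dhx58, Zbp1, Oas2, Usp18, Mx1, Mx2, Rtp4, Ifi27 and Parp14 had no entry. A match is a description of the letters in the window, and Ifit1, with 2 matches, had a log2 fold change of -0.19 at 16 weeks.

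Several features of the libraries touch the results below. Library totals were 9.538 to 26.914 M read pairs (M, mega) in KO-16, 8.632 to 19.678 M in WT-16, 16.529 to 19.466 M in KO-8 and 17.42 to 27.517 M in WT-8. A gene on 18S ribosomal RNA, CT010467.1, took 1.71% to 30.0% of the counts in KO-16 and 6.88% to 39.1% in WT-16, but at most 0.0666% in the KO-8 and WT-8 libraries. Levels are given in CPM, counts scaled to a common library size with TMM factors, and 1 count was then worth 0.0279 to 0.166 CPM in KO-16, 0.0460 to 0.253 CPM in WT-16, 0.0373 to 0.0430 CPM in KO-8 and 0.0259 to 0.0436 CPM in WT-8. Replicate 4 of KO-16 and replicate 5 of WT-16 had 1748 and 955 counts of Y-linked transcripts, and the other libraries at most 2. Each 16-week library was deposited as 2 files and each 8-week library as 1, so for levels time and sequencing run cannot be told apart, and the 2 times are compared by their knockout effects alone. Mpc1, the deleted gene, was at 9.03 to 26.2 CPM in KO-16 against 61.7 to 83.9 CPM in WT-16, and at 8.41 to 11.98 CPM in KO-8 against 63.6 to 82.3 CPM in WT-8. Cardiomyocyte markers summed to 86442 to 124020 CPM in KO-16, 115540 to 131960 CPM in WT-16, 103410 to 110520 CPM in KO-8 and 107770 to 111200 CPM in WT-8. Ttn and Myh6 made up most of each sum. Of the 10 cardiomyocyte markers 0 were called in the edgeR fit to the 16-week libraries. The fit to all libraries called 1 higher (Mybpc3) and 4 lower (Tnni3, Pln, Myh6 and Ryr2) at 16 weeks, where it called 20.5% of all genes. In the fit to the 8-week libraries Actn2 was called higher and Pln and Ryr2 lower.

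All 35 members were at low to moderate levels in these hearts. Per length of the gene, in CPM per kilobase (RPKM), mean levels over all libraries ran from 0.125 for the chemokine Cxcl10 to 6.93 for Gbp2, a guanylate-binding protein. Parp14, an ADP-ribosyltransferase, came next at 5.26, then Bst2 at 4.95, Ifit2 at 4.68, the immunity-related GTPase Igtp at 4.55 and Rsad2 at 4.25. The order below Gbp2 differed between groups, and in WT-8 Bst2, at 6.06 RPKM, stood above Parp14, at 4.50 RPKM. The lowest after Cxcl10 were Mx1, a GTPase that blocks influenza virus, at 0.193, and the nucleic acid sensor Zbp1 at 0.263. Because this is bulk tissue, fewer cells of a type and less RNA per cell cannot be told apart for any of these levels.

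A difference was called where edgeR's quasi-likelihood test, fitted to the libraries of that time, gave a Benjamini-Hochberg adjusted p under 0.05 over all genes. Rsad2 rose at both times and Mx1 rose at 8 weeks, and no member fell. At 16 weeks 29 of the 35 members passed the filter on low counts, and 1 of them, Rsad2, was called, which is 3.45% of those tested. Of all 12597 genes tested at that time 2.83% were called in either direction, 1.88% higher and 0.945% lower. At 8 weeks 34 members passed the filter, and 2 of them, Rsad2 and Mx1, were called higher, which is 5.88%, against 8.21% of all 15173 genes in either direction, 4.3% higher and 3.91% lower. These shares of called members are near the shares over all genes.

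Most members, called or not, had values above 0 on the log2 fold change scale. At 16 weeks 26 of 29 tested members had a log2 fold change above 0, against 51.1% of all genes, and at 8 weeks 34 of 34 did, against 50.4%. At an unadjusted p under 0.05, 6 members (20.7%) were higher in KO-16 and 0 lower, against 13.7% and 11.7% of all genes. At 8 weeks 9 members (26.5%) were higher in KO-8 and 0 lower, against 12% and 11.2% of all genes. The median log2 fold change of the tested members was 0.34 at 16 weeks, where the median over all genes was 0.01, and 0.22 at 8 weeks, where it was 0.00. The median SE of a single member was 0.26 at 16 weeks and 0.16 at 8 weeks, and 20 of 29 members at 16 weeks and 24 of 34 at 8 weeks lay within 2 SEs of 0. Cxcl10 did not pass the filter at either time, and Zbp1, Oas1a, Oasl1, Isg15 and Mx1 passed it at 8 weeks but not at 16 weeks.

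**Figure D1:**
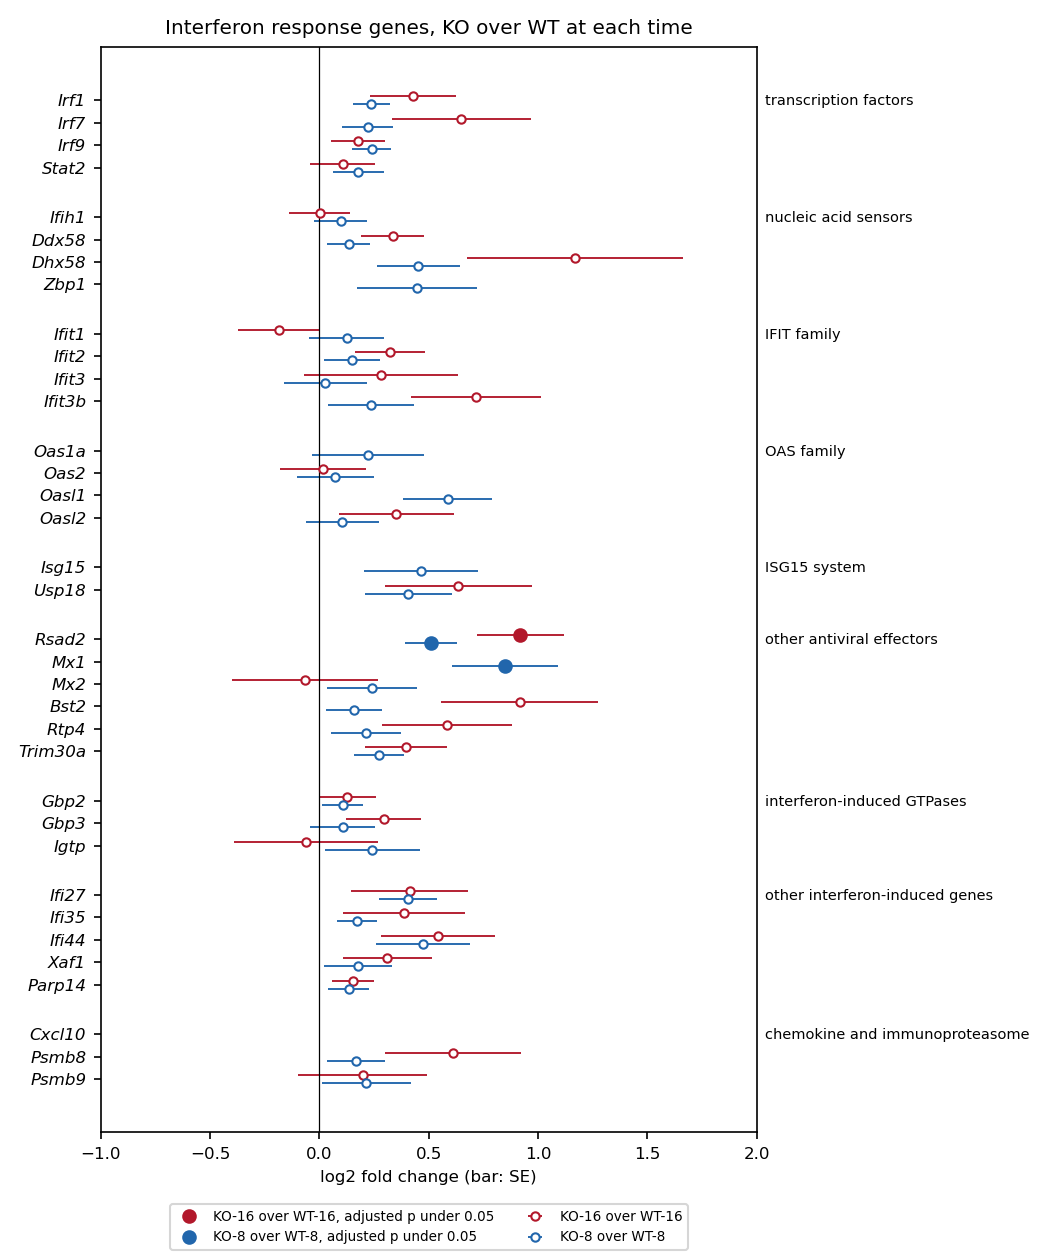
Log2 fold change of each member by role, KO-16 over WT-16 in red and KO-8 over WT-8 in blue, with bars of 1 SE; filled points have an adjusted p under 0.05, and a missing point did not pass the filter. Nearly all points lie right of 0, and the filled ones are Rsad2 at both times and Mx1 at 8 weeks.

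Rsad2, also called viperin, makes a nucleotide that stops viral RNA synthesis. The gene (ENSMUSG00000020641) lies at chr12:26442746-26456452 of GRCm38 on the minus strand. In KO-16 it had 16.7, 21.3, 33.1, 27.8 and 20.3 CPM, against 10.1, 16.4, 13.2, 9.99 and 13.3 CPM in WT-16. The lowest KO-16 library lay just above the highest WT-16 library, so the groups did not overlap. This gave a log2 fold change of 0.92 (SE 0.20, edgeR adjusted p = 0.0339), or 1.89-fold. It was the 1 of 29 tested members (3.45%) of which this held, against 2.12% of all genes tested. At 8 weeks 0 of 34 members had every KO-8 library above every WT-8 library, against 5.01% of all genes. Leaving out any WT-16 library, or replicate 2, 3 or 4 of KO-16, ended the call. Log2 fold changes in these fits were 0.77 to 1.02, with edgeR adjusted p up to 0.0997. These fits called 29 to 214 of all genes, against 356 with all 16-week libraries. Without replicate 1 or 5 of KO-16 the call held, and 1702 and 1856 of all genes were called. With the 18S share as a covariate the log2 fold change was 0.89 (edgeR adjusted p = 0.0990), and without the libraries with Y-linked transcripts it was 0.88 (adjusted p = 0.171).

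At 8 weeks Rsad2 had 22.2, 23.3, 26.3 and 17.2 CPM in KO-8, against 12.6, 15.9, 18.4, 15.7 and 16.1 CPM in WT-8. Of the KO-8 libraries 3 lay above all WT-8 libraries, and replicate 4 lay below the highest of them. The log2 fold change was 0.51 (SE 0.12, edgeR adjusted p = 0.0169), or 1.43-fold. Without replicate 3 of KO-8 it was 0.42 (adjusted p = 0.0509). Leaving out any other single library kept the call. The knockout effects on Rsad2 at the 2 times differed by 0.41 on the log2 scale (SE 0.25), and this difference did not pass the test (edgeR adjusted p = 0.471).

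Mx1 lies on chromosome 16 (ENSMUSG00000000386, chr16:97447035-97462907, minus strand). In KO-8 it had 0.860, 1.10, 0.967 and 0.560 CPM, against 0.449, 0.460, 0.654, 0.441 and 0.440 CPM in WT-8. Only replicate 4 of KO-8 overlapped with WT-8, and it did so through replicate 3 of WT-8 alone. The log2 fold change was 0.85 (SE 0.24, edgeR adjusted p = 0.0456), or 1.80-fold, just past the threshold. These levels rest on 15 to 27 counts a library in KO-8 and 11 to 17 in WT-8. Leaving out any library other than replicate 4 of KO-8 or replicate 3 of WT-8 ended the call (adjusted p up to 0.130), and so did DESeq2 (adjusted p = 0.0798). Without replicate 4 of KO-8 there were 5 called members, Rsad2, Mx1, Usp18, Irf7 and Ifi27, and without replicate 3 of KO-8 there were 0. Of all genes 1163 of 15340 were called without replicate 4 and 892 of 15356 without replicate 3, against 1245 of 15173 with all libraries.

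At 16 weeks Mx1 had 0.771, 1.73, 1.42, 1.22 and 0.996 CPM in KO-16, against 0, 0.723, 0.598, 0.499 and 0 CPM in WT-16. The groups did not overlap. These levels rest on 11, 62, 23, 10 and 6 counts in KO-16 and on 0, 4, 13, 3 and 0 counts in WT-16. A count of 0 allows up to 3 counts, which is 0.758 CPM in replicate 1 and 0.690 CPM in replicate 5 of WT-16, just below the lowest KO-16 library. No limit was worked out for the low counts above 0, so the separation is not secure against counting error. Mx1 did not pass the filter in the 16-week libraries. In the fit to all 19 libraries, which takes 1 spread for both times, its log2 fold change was 1.49 (SE 0.42, edgeR adjusted p = 0.0176). In the 16-week libraries alone with no filter it was 1.53 (edgeR adjusted p = 0.131). Reads of Mx1 and its neighbour and near copy Mx2 may be shared, and Mx2 had a log2 fold change of -0.07 (SE 0.33, edgeR adjusted p = 0.919) at 16 weeks.

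**Figure D2:**
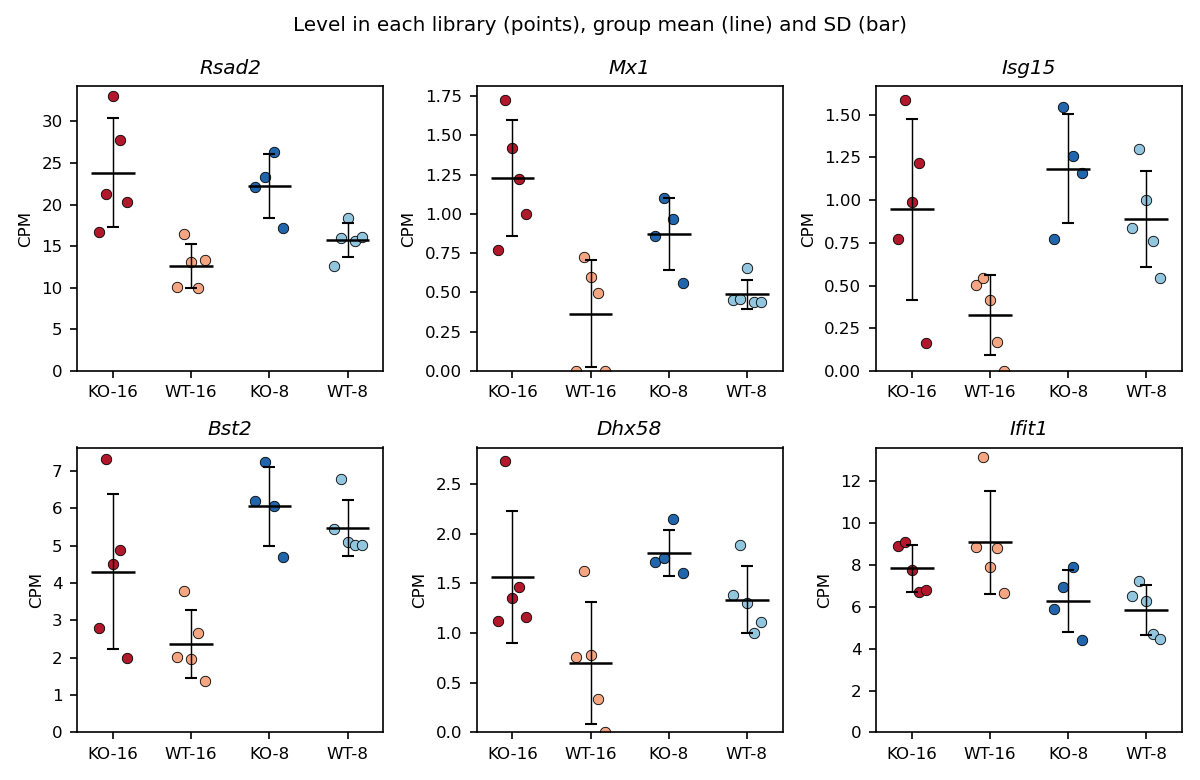
CPM of 6 members in each library (points), with the group mean (line) and SD (bar), in KO-16 (5 libraries), WT-16 (5), KO-8 (4) and WT-8 (5). The groups of 16 weeks do not overlap for Rsad2 and Mx1 and overlap for Isg15, Bst2, Dhx58 and Ifit1.

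The fit to all libraries called 5 members at 16 weeks (14.7% of 34 tested), namely Rsad2, Mx1, Isg15, Bst2 and Dhx58, all higher, where it called 20.5% of all 15503 genes, 11.2% of them higher. The same fit called 0 members at 8 weeks, where it called 0.2% of all genes, 0.11% higher, and 3 members had an unadjusted p under 0.05 (8.82%, against 4.05% of all genes higher). The common coefficient of variation between libraries was 0.228 at 16 weeks, 0.093 at 8 weeks and 0.171 over all libraries. The shared spread was thus smaller than that of the 16-week libraries and larger than that of the 8-week libraries. At 16 weeks the fit to all libraries with the 18S share as a covariate called Rsad2 alone of the members, and 1549 of 15503 genes. Without the libraries with Y-linked transcripts it called Rsad2 and Mx1, and 1706 of 15502 genes. Limma-voom on all libraries called the same members except Isg15 as the main fit, and 2911 of 15503 genes. With quality weights it called Rsad2, Mx1 and Bst2, and 3022 of 15503 genes. DESeq2 added Irf1 and Irf7, with 3675 of 15503 genes called, and no filter added Cxcl10, with 2917 of 32638. The later 16-week file alone added Irf1 and Ifit3b and lost Dhx58, with 2720 of 15453. The earlier file alone added Irf7 and lost Mx1 and Isg15, with 2339 of 14476.

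Isg15 is a ubiquitin-like protein that is attached to other proteins during the response. It had 0.771, 1.59, 0.986, 1.22 and 0.166 CPM in KO-16, against 0.506, 0.542, 0.414, 0.166 and 0 CPM in WT-16. Of the KO-16 libraries 4 lay above all WT-16 libraries, and replicate 5 lay among them with a single count. The log2 fold change was 1.56 in the fit to all libraries (SE 0.49, edgeR adjusted p = 0.0304) and 1.54 in the 16-week libraries alone with no filter (adjusted p = 0.171). In KO-8 Isg15 had 0.774, 1.55, 1.26 and 1.157 CPM, against 0.834, 1.30, 1.0025, 0.761 and 0.544 CPM in WT-8. These groups overlapped broadly, with a log2 fold change of 0.47 (SE 0.26, edgeR adjusted p = 0.311). Usp18, the protease that removes Isg15 and damps the receptor, averaged 1.959 ± 0.721 CPM in KO-16 and 1.23 ± 0.394 CPM in WT-16 (SD, n = 5 each). It averaged 2.47 ± 0.666 CPM in KO-8 and 1.87 ± 0.345 CPM in WT-8 (SD, n = 4 and 5) and passed the test at neither time.

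Bst2, or tetherin, holds budding virus particles to the cell. It had 2.80, 7.33, 4.50, 4.88 and 1.99 CPM in KO-16, against 2.02, 3.79, 1.98, 2.66 and 1.38 CPM in WT-16. The groups overlapped, and replicate 2 of KO-16 stood highest. The log2 fold change was 0.92 (SE 0.36, edgeR adjusted p = 0.135) in the 16-week libraries and 0.97 (SE 0.30, adjusted p = 0.0266) in the fit to all libraries. At 8 weeks Bst2 had 6.19, 7.25, 6.05 and 4.70 CPM in KO-8, against 5.45, 6.78, 5.10, 5.01 and 5.03 CPM in WT-8. The log2 fold change there was 0.16 (SE 0.13, edgeR adjusted p = 0.515). The knockout effect on Bst2 was larger at 16 than at 8 weeks by 0.82 on the log2 scale (SE 0.38), with an unadjusted p of 0.0422 and an edgeR adjusted p of 0.378.

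Among the other effectors, Rtp4, Trim30a and Mx2 passed the test at neither time. Mx2 averaged 1.61 ± 0.672 CPM in KO-16 and 1.70 ± 0.557 CPM in WT-16, and 1.78 ± 0.321 CPM in KO-8 and 1.51 ± 0.402 CPM in WT-8 (SD). Trim30a, a ubiquitin ligase family member that restrains inflammatory signalling in mice, averaged 17.5 ± 3.15 CPM in KO-16 and 13.3 ± 3.34 CPM in WT-16 (SD, n = 5 each). It averaged 13.8 ± 2.33 CPM in KO-8 and 11.6 ± 1.37 CPM in WT-8 (SD, n = 4 and 5). Rtp4, a receptor transporter protein with antiviral activity, averaged 5.66 ± 1.15 CPM in KO-16 and 3.74 ± 2.04 CPM in WT-16, and 4.87 ± 1.07 CPM in KO-8 and 4.25 ± 0.838 CPM in WT-8 (SD).

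The nucleic acid sensors detect viral or misplaced RNA and DNA inside the cell. Dhx58, or LGP2, regulates the other RNA sensors and had the highest log2 fold change of the tested members at 16 weeks, 1.17 (SE 0.49, edgeR adjusted p = 0.163; 1.19 and 0.0441 in the fit to all libraries). It had 1.12, 2.73, 1.36, 1.46 and 1.162 CPM in KO-16, against 0.758, 1.63, 0.782, 0.333 and 0 CPM in WT-16. Replicate 2 of KO-16 was far above the rest of its group, and the other 4 KO-16 libraries lay below the highest WT-16 library. In KO-8 Dhx58 had 1.72, 1.75, 2.14 and 1.605 CPM, against 1.38, 1.88, 1.31, 1.002 and 1.11 CPM in WT-8, a log2 fold change of 0.45 (edgeR adjusted p = 0.169).

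Ddx58, or RIG-I, was the most abundant sensor per length over all libraries, while in WT-16 it was at 2.55 RPKM and Ifih1 at 2.74 RPKM. It had 18.2, 23.7, 25.3, 24.5 and 21.8 CPM in KO-16, against 18.5, 21.1, 20.5, 13.8 and 16.1 CPM in WT-16. Of the KO-16 libraries 4 lay above all WT-16 libraries, with a log2 fold change of 0.34 (edgeR adjusted p = 0.168). In KO-8 it had 16.2, 15.5, 18.999 and 17.2 CPM, against 13.9, 18.5, 17.3, 13.9 and 14.5 CPM in WT-8, which overlapped. In Ifih1, or MDA5, the groups of each time differed by less than 1 SD, with 22.2 ± 2.88 CPM in KO-16 and 22.4 ± 3.81 CPM in WT-16, and 17.2 ± 2.68 CPM in KO-8 and 16.2 ± 2.51 CPM in WT-8 (SD). Zbp1, which senses left-handed nucleic acid, averaged 0.759 ± 0.158 CPM in KO-8 and 0.554 ± 0.178 CPM in WT-8 (SD, n = 4 and 5), and 1.37 ± 0.397 CPM in KO-16 and 0.987 ± 0.773 CPM in WT-16 (SD, n = 5 each).

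The transcription factors that carry and extend the response passed the test at neither time. Irf1, the most abundant of them per length, had 14.7, 15.7, 13.9, 17.3 and 12.1 CPM in KO-16, against 15.2, 10.7, 13.7, 7.82 and 7.36 CPM in WT-16. The groups overlapped through replicates 1 and 3 of WT-16 (log2 fold change 0.43, edgeR adjusted p = 0.189). In KO-8 Irf1 had 14.9, 17.4, 15.3 and 13.96 CPM, against 11.7, 12.6, 13.1, 13.5 and 14.8 CPM in WT-8. Here 3 of 4 KO-8 libraries lay above all WT-8 libraries (log2 fold change 0.24, edgeR adjusted p = 0.103). Irf7, which amplifies type I interferon production, averaged 5.94 ± 1.88 CPM in KO-16 and 3.78 ± 2.02 CPM in WT-16, and 7.28 ± 1.36 CPM in KO-8 and 6.29 ± 0.356 CPM in WT-8 (SD). Irf9 averaged 15.1 ± 0.870 CPM in KO-16 and 13.4 ± 1.82 CPM in WT-16, and 14.8 ± 1.25 CPM in KO-8 and 12.6 ± 1.42 CPM in WT-8 (SD). Its partner Stat2 averaged 13.01 ± 2.12 CPM in KO-16 and 12.2 ± 1.66 CPM in WT-16, and 11.98 ± 1.9597 CPM in KO-8 and 10.7 ± 1.41 CPM in WT-8 (SD).

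The IFIT genes, whose proteins bind foreign RNA and block its translation, lie together on chromosome 19 and passed the test at neither time. Ifit2, the most abundant per length, had 18.1, 28.6, 21.5, 24.3 and 22.1 CPM in KO-16, against 19.2, 23.3, 16.97, 19.6 and 13.1 CPM in WT-16. In KO-8 it had 16.7, 16.5, 19.6 and 13.8 CPM, against 16.5, 18.5, 16.2, 12.3 and 12.3 CPM in WT-8. The groups overlapped at both times. Ifit1 was the member with the lowest fold change at 16 weeks, averaging 7.86 ± 1.12 CPM in KO-16 and 9.09 ± 2.46 CPM in WT-16 (SD, n = 5 each; log2 fold change -0.19, SE 0.19, edgeR adjusted p = 0.549). Replicate 2 of WT-16, at 13.2 CPM, was the highest library. In KO-8 Ifit1 averaged 6.30 ± 1.49 CPM, against 5.85 ± 1.21 CPM in WT-8 (SD, n = 4 and 5). The near-identical pair Ifit3 and Ifit3b, between which reads may be shared, averaged 5.09 and 2.08 CPM in KO-16 and 4.22 and 1.37 CPM in WT-16, and 5.34 and 2.25 CPM in KO-8 and 5.30 and 1.93 CPM in WT-8.

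The OAS genes encode enzymes that make a messenger which activates RNA decay, and their relatives Oasl1 and Oasl2. Oas2 had 6.87, 7.16, 6.78, 6.47 and 4.65 CPM in KO-16, against 6.07, 5.78, 5.57, 5.49 and 9.65 CPM in WT-16. Apart from replicate 5 of each group, the KO-16 libraries lay above the WT-16 libraries, and replicate 5 ran the other way in both. The log2 fold change over all 10 libraries was 0.02 (SE 0.20, edgeR adjusted p = 0.971). In KO-8 Oas2 had 5.50, 7.66, 9.42 and 5.04 CPM, against 5.29, 8.41, 7.10, 5.97 and 6.40 CPM in WT-8, with wide overlap. Oasl1, a brake on Irf7 translation in mice, had the next largest log2 fold change at 8 weeks after Mx1, 0.59 (SE 0.20, edgeR adjusted p = 0.0951). It averaged 1.62 ± 0.375 CPM in KO-8 and 1.08 ± 0.219 CPM in WT-8 (SD, n = 4 and 5). Oasl2 averaged 11.7 ± 2.63 CPM in KO-16 and 9.38 ± 3.94 CPM in WT-16, and 7.95 ± 1.48 CPM in KO-8 and 7.53 ± 1.85 CPM in WT-8 (SD). Oas1a, which has near copies beside it, averaged 1.07 ± 0.884 CPM in KO-16 and 0.679 ± 0.302 CPM in WT-16, and 1.34 ± 0.486 CPM in KO-8 and 1.159 ± 0.317 CPM in WT-8 (SD).

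The interferon-induced GTPases attack membranes that surround intracellular microbes, and none passed the test. Gbp2 had 18.02, 18.3, 15.8, 20.1 and 17.9 CPM in KO-16, against 19.97, 16.8, 16.2, 16.975 and 12.9 CPM in WT-16. In KO-8 it had 17.2, 20.7, 19.97 and 15.1 CPM, against 15.3, 18.5, 17.2, 15.8 and 18.4 CPM in WT-8. Both pairs of groups overlapped, with log2 fold changes of 0.13 at 16 weeks and 0.11 at 8 weeks. Gbp3 averaged 14.3 ± 2.07 CPM in KO-16 and 11.7 ± 2.67 CPM in WT-16, and 13.1 ± 3.25 CPM in KO-8 and 12.2 ± 1.66 CPM in WT-8 (SD). Igtp, which overlaps Irgm2 on the same strand, had a log2 fold change of -0.06 at 16 weeks (SE 0.33, edgeR adjusted p = 0.926) and ranged from 3.49 to 10.9 CPM in KO-16 and from 3.22 to 10.8 CPM in WT-16. It ranged from 8.51 to 19.4 CPM in KO-8 and from 8.81 to 15.7 CPM in WT-8.

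Of the remaining interferon-induced genes, Parp14 was the most abundant per length over all libraries. At 8 weeks Ifi35 stood above it, at 6.02 RPKM in KO-8 and 5.37 RPKM in WT-8, against 4.89 and 4.50 RPKM for Parp14. Parp14 had 52.8, 60.3, 52.1, 59.5 and 58.8 CPM in KO-16, against 55.6, 49.7, 49.3, 53.4 and 48.0 CPM in WT-16. In KO-8 it had 42.0, 50.3, 52.6 and 37.2 CPM, against 41.9, 46.3, 43.1, 38.7 and 39.2 CPM in WT-8. The log2 fold changes were 0.15 (edgeR adjusted p = 0.326) and 0.13 (adjusted p = 0.442), and the groups overlapped at both times. Ifi27, a protein of mitochondrial and nuclear membranes, averaged 5.90 ± 1.93 CPM in KO-16 and 4.36 ± 1.28 CPM in WT-16, and 8.07 ± 1.91 CPM in KO-8 and 6.10 ± 0.303 CPM in WT-8 (SD). Ifi44 averaged 7.22 ± 1.19 CPM in KO-16 and 5.12 ± 2.09 CPM in WT-16, and 5.71 ± 2.00 CPM in KO-8 and 4.17 ± 0.953 CPM in WT-8 (SD). Neither passed the test. Ifi35 averaged 5.53 ± 1.88 CPM in KO-16 and 4.16 ± 1.40 CPM in WT-16, and 10.4 ± 1.28 CPM in KO-8 and 9.28 ± 0.726 CPM in WT-8 (SD). The proapoptotic Xaf1 averaged 6.12 ± 0.740 CPM in KO-16 and 4.99 ± 1.39 CPM in WT-16, and 7.25 ± 1.42 CPM in KO-8 and 6.51 ± 1.38 CPM in WT-8 (SD).

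Cxcl10, which draws T cells into tissue, was barely detected, with 120 counts in all 19 libraries together. It had 4, 31, 14, 1 and 4 counts in the KO-16 libraries, against 0, 0, 6, 0 and 0 counts in the WT-16 libraries. It had 8, 9, 4 and 5 counts in KO-8 and 8, 8, 6, 4 and 8 counts in WT-8. In CPM the 16-week groups were at 0.122 to 0.864 and 0 to 0.276, and a count of 0 allows up to 0.758, 0.542, 0.499 and 0.690 CPM in replicates 1, 2, 4 and 5 of WT-16. Psmb8, a catalytic subunit of the immunoproteasome that cuts proteins into peptides for antigen display, had 4.84, 7.66, 5.24, 2.20 and 4.48 CPM in KO-16, against 3.29, 3.25, 4.55, 2.83 and 1.84 CPM in WT-16. In KO-8 it had 6.49, 7.98, 5.42 and 4.63 CPM, against 5.93, 5.61, 5.10, 5.73 and 5.08 CPM in WT-8. The groups overlapped at both times, through replicate 4 of KO-16 and of KO-8 among others, and edgeR adjusted p was 0.232 and 0.499. Psmb9, whose gene overlaps Tap1 on the opposite strand, averaged 3.14 ± 0.916 CPM in KO-16 and 2.83 ± 1.06 CPM in WT-16, and 3.10 ± 0.842 CPM in KO-8 and 2.69 ± 0.631 CPM in WT-8 (SD).

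The number of members above their WT mean varied between libraries of 1 group. Replicate 2 of KO-16 had 33 of 35 members above their WT-16 mean in CPM, and the other KO-16 libraries had 27, 29, 24 and 24. The WT-16 libraries had 20, 24, 22, 14 and 6, the last in replicate 5. In KO-8 the numbers were 22, 34, 32 and 11, against 18, 29, 23, 5 and 8 in WT-8. Replicate 4 of KO-8 thus lay with the lower WT-8 libraries, and replicate 2 of WT-8 with the higher KO-8 libraries. In the same libraries 45.7% to 52.9% of all tested genes lay above their WT mean. The summed level of the members was 311 to 392 CPM in KO-16 and 225 to 320 CPM in WT-16, and 263 to 360 CPM in KO-8 and 250 to 319 CPM in WT-8.

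**Figure D3:**
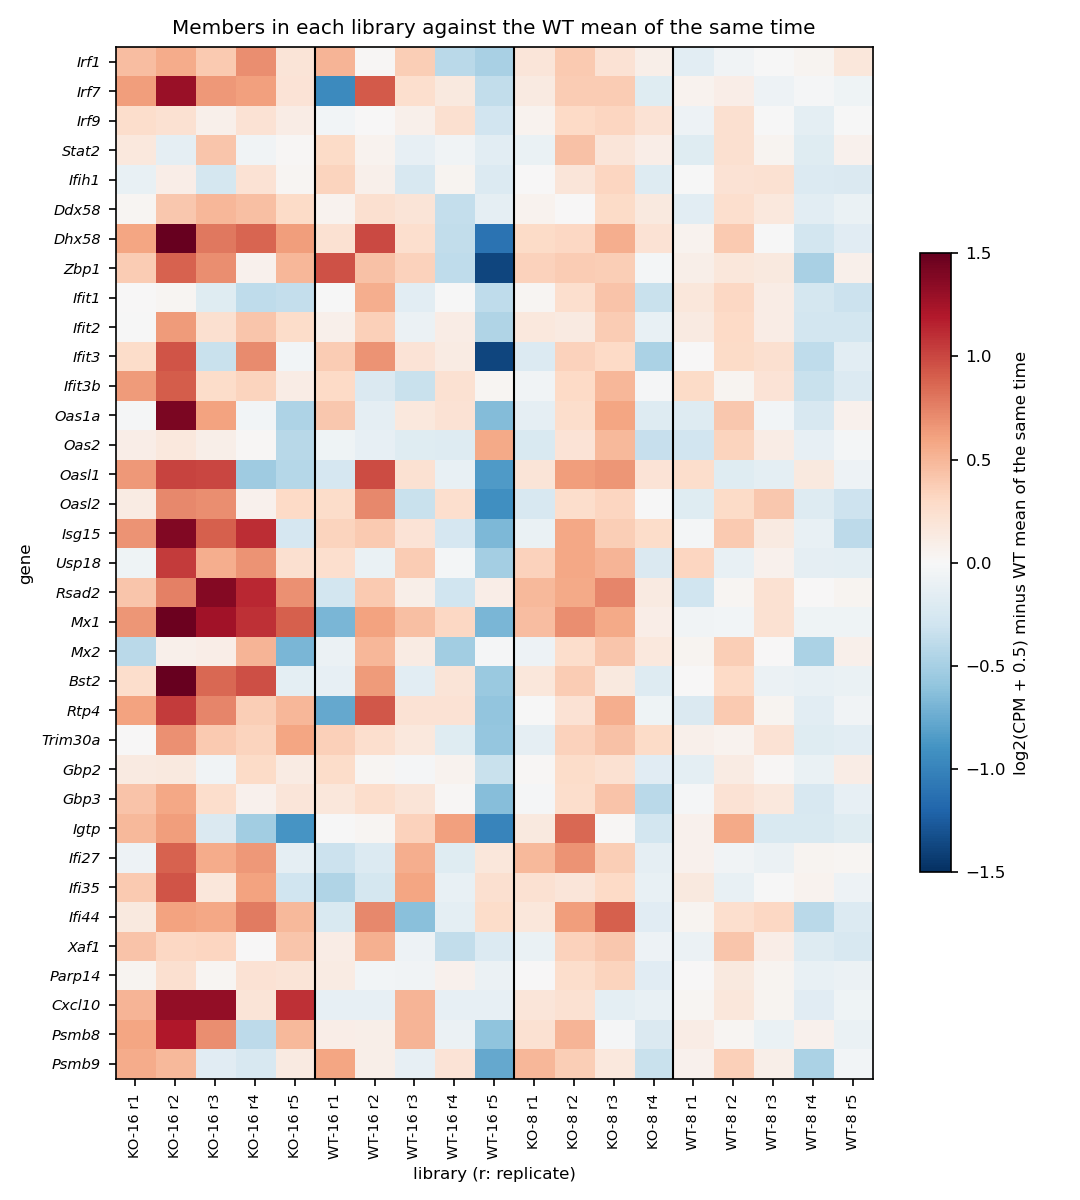
Difference of each member from its WT mean of the same time, in log2(CPM + 0.5), in each of the 19 libraries, with colours capped at 1.5 in each direction. Replicate 2 of KO-16 is red in most rows and replicate 5 of WT-16 is red in few.

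**Figure D4:**
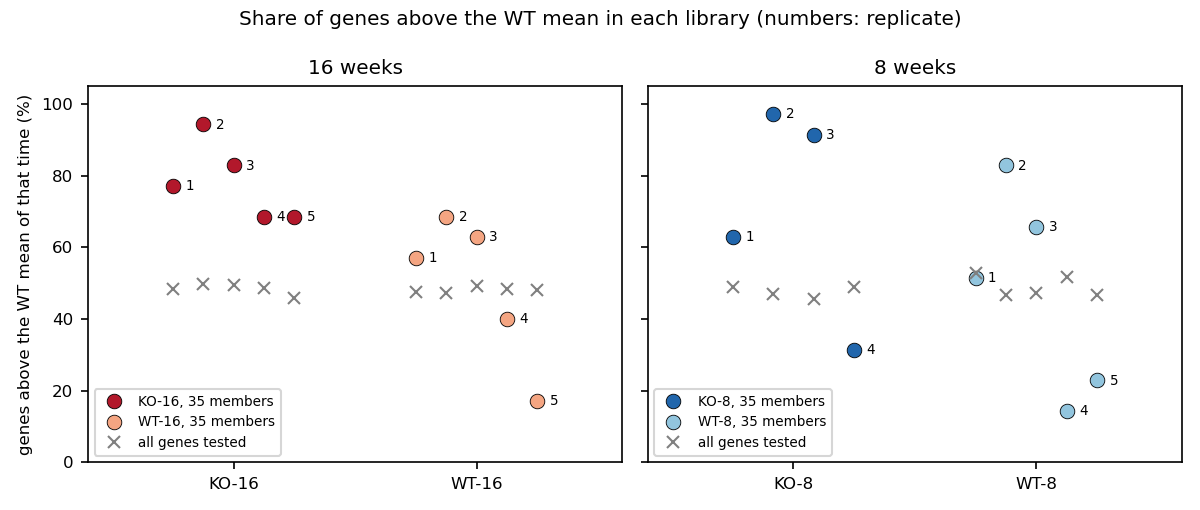
Share of the 35 members (circles, with replicate numbers) and of all tested genes (crosses) above the WT mean of the same time in each library, in percent. The circles spread widely within each group and overlap between the knockout and wild-type groups at both times, while the crosses stay between 45.7% and 52.9%.

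The 16-week libraries at the 2 ends of this range also differed in depth and 18S share. Replicate 2 of KO-16 was the deepest 16-week library, with 26.914 M read pairs and an 18S share of 1.71%. Replicate 5 of WT-16 had 9.558 M and 29.7%, and it was the WT-16 library with Y-linked transcripts. The median log2 fold change of the members was 0.23 without the first and 0.26 without the second, against 0.34 with all libraries. At 8 weeks, where 18S took at most 0.0666% of counts, replicate 4 of KO-8 had that highest share. The part of depth, 18S share and sex in the 16-week values was not tested beyond the fits given above.

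The knockout effects at the 2 times were compared directly in the fit to all libraries. Of 34 members 0 passed the edgeR test of the difference, with adjusted p from 0.378 to 0.996, and 1, Bst2, had an unadjusted p under 0.05 (2.94%, against 8.17% of all genes with a larger effect at 16 weeks). Of all 15503 genes 0 passed it, and 2000 had an unadjusted p under 0.05. DESeq2 and limma-voom called 0 members as well, and 30 and 0 of all 15503 genes. The median difference of the members was 0.19 on the log2 scale, against 0.03 over all genes.

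Other genes of the interferon pathway, 53 in all, were counted in the same fits. None of the 12 interferon and related ligand genes passed the filter at either time. Over all 19 libraries Il27 had 9 counts, interferon gamma (Ifng) 7, Ifna2 2, and Ifna4, Ifne and Ifnz 1 each, while Ifnb1, Ifna1, Ifna5, Ifnk, Ifnl2 and Ifnl3 had 0. Ligand transcripts were therefore at the edge of detection at this depth in all 4 groups. Of the 41 receptor, transducer, inhibitor and sensor genes, 37 were tested at 16 weeks and 39 at 8 weeks. At 16 weeks 2 of them rose (5.41%, against 1.88% of all genes) and 0 fell, and at 8 weeks 3 rose (7.69%, against 4.3% of all genes) and 0 fell.

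The genes that rose at 16 weeks were Ifngr1, the ligand-binding chain of the interferon gamma receptor, and Irf5, a transcription factor of inflammatory cytokines. Ifngr1 had 27.6, 38.5, 44.8, 38.2 and 28.9 CPM in KO-16, against 18.2, 24.0, 24.8, 21.3 and 21.8 CPM in WT-16, with no overlap (log2 fold change 0.69, SE 0.15, edgeR adjusted p = 0.0333). Irf5 had 2.31, 4.43, 3.88, 1.46 and 2.99 CPM in KO-16, against 1.01, 0.723, 1.15, 1.17 and 0 CPM in WT-16, also with no overlap (log2 fold change 1.80, SE 0.44, edgeR adjusted p = 0.0461). Leaving out replicate 1, 2, 4 or 5 of WT-16 or replicate 2, 3 or 4 of KO-16 ended the Ifngr1 call, with adjusted p up to 0.0997. The same libraries and replicate 3 of WT-16 ended the Irf5 call, with edgeR adjusted p up to 0.122. These fits called 29 to 214 of all genes, against 356 with all 16-week libraries. Jak1 and Tyk2 did not pass the test at either time, but in the fit to all 19 libraries at 16 weeks Jak1 was called lower (log2 fold change -0.30, edgeR adjusted p = 0.0226) and Tyk2 higher (0.42, adjusted p = 0.0328).

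At 8 weeks the genes that rose were Ifnar2, a chain of the type I interferon receptor, Tlr3, a sensor of double-stranded RNA, and Nlrc3, an inhibitor of DNA sensing. Ifnar2 averaged 16.4 ± 0.790 CPM in KO-8 and 14.3 ± 0.387 CPM in WT-8 (SD, n = 4 and 5), a log2 fold change of 0.21 (SE 0.06, edgeR adjusted p = 0.0381). Tlr3 averaged 10.2 ± 0.445 CPM in KO-8 and 8.39 ± 0.696 CPM in WT-8, a log2 fold change of 0.29 (SE 0.08, edgeR adjusted p = 0.0305). Nlrc3 averaged 2.23 ± 0.729 CPM in KO-8 and 1.15 ± 0.318 CPM in WT-8, a log2 fold change of 0.99 (SE 0.24, edgeR adjusted p = 0.0202). Nlrc3 lost its call without replicate 3 of KO-8 alone (adjusted p = 0.0632). Ifnar2 kept its call without replicate 2 of KO-8 and lost it without any other library (adjusted p up to 0.104), and Tlr3 kept its call without replicate 1 or 2 of WT-8 and lost it without any other library (edgeR adjusted p up to 0.0819).

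A further 70 interferon-stimulated genes that are no members gave calls in both directions at 16 weeks and in 1 direction at 8 weeks. At 16 weeks 60 were tested, 1 rose (1.67%, against 1.88% of all genes), 1 fell (1.67%, against 0.945%), and 48 had a log2 fold change above 0, with a median of 0.29. At 8 weeks 66 were tested, 8 rose (12.1%, against 4.3% of all genes), 0 fell, and 59 had a log2 fold change above 0, with a median of 0.18. The gene that rose at both times was Psmb10, another catalytic subunit of the immunoproteasome. It had 11.1, 20.8, 16.6, 19.5 and 7.64 CPM in KO-16, against 4.55, 6.87, 7.04, 6.49 and 6.44 CPM in WT-16, with no overlap (log2 fold change 1.27, SE 0.25, edgeR adjusted p = 0.0274). At 8 weeks it averaged 18.4 ± 1.80 CPM in KO-8 and 14.9 ± 1.32 CPM in WT-8 (log2 fold change 0.32, SE 0.08, edgeR adjusted p = 0.0240).

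Gbp6, a guanylate-binding protein with close relatives in its cluster, fell at 16 weeks. It had 9.04, 6.52, 5.42, 6.71 and 10.1 CPM in KO-16, against 11.4, 15.7, 9.57, 19.97 and 29.7 CPM in WT-16 (log2 fold change -1.18, SE 0.28, edgeR adjusted p = 0.0433). Only replicate 5 of KO-16 and replicate 3 of WT-16 overlapped. Leaving out replicate 1, 2, 4 or 5 of WT-16 or replicate 2, 3 or 4 of KO-16 ended the 16-week calls of both Psmb10 (adjusted p up to 0.0857) and Gbp6 (edgeR adjusted p up to 0.118). Those fits called 29 to 56 of all genes, against 356 with all 16-week libraries. The 8-week call of Psmb10 ended without replicate 3, 4 or 5 of WT-8 or replicate 2 of KO-8.

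The other genes that rose at 8 weeks by the rule for naming were B2m, Lgals3bp, Cmpk2, Trim21 and Psme1. B2m, the light chain of MHC class I, averaged 197 ± 16.8 CPM in KO-8 and 147 ± 17.9 CPM in WT-8, a log2 fold change of 0.43 (SE 0.09, edgeR adjusted p = 0.00850). Every KO-8 library, from 178 to 215 CPM, lay above every WT-8 library, from 130 to 175 CPM. Cmpk2, a mitochondrial nucleotide kinase, averaged 8.89 ± 1.14 CPM in KO-8 and 6.48 ± 0.561 CPM in WT-8, a log2 fold change of 0.47 (SE 0.10, edgeR adjusted p = 0.0125). Cmpk2 is the neighbour of Rsad2, at chr12:26469204-26479837 on the plus strand, with 12751 bases and 0 annotated genes between them. Lgals3bp, a secreted glycoprotein, averaged 17.8 ± 1.29 CPM in KO-8 and 13.6 ± 1.67 CPM in WT-8, a log2 fold change of 0.40 (SE 0.09, edgeR adjusted p = 0.0121).

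B2m, Cmpk2 and Lgals3bp were called whichever single 8-week library was left out. Trim21, an antibody receptor and ubiquitin ligase of the cytosol, had a log2 fold change of 0.38 (SE 0.09, edgeR adjusted p = 0.0196), which was not called without replicate 2 of KO-8. Psme1, a proteasome activator subunit, had 0.25 (SE 0.06, edgeR adjusted p = 0.0255), not called without replicate 4 of WT-8 or replicate 1 of KO-8. In the fit to all libraries none of the 8-week calls in any of these lists held. That fit called 0.2% of all genes at 8 weeks, against 8.21% in the fit to the 8-week libraries. Its common coefficient of variation was 0.171, against 0.093.

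Markers of other cell types that respond to interferon were measured in the same libraries. Endothelial markers summed to 692 to 983 CPM in KO-16 and 618 to 699 CPM in WT-16, with 1 of 10 tested markers called higher, and to 784 to 872 CPM in KO-8 and 731 to 773 CPM in WT-8, with 3 of 10 higher. Fibroblast markers summed to 899 to 1729 CPM in KO-16 and 689 to 945 CPM in WT-16, with 4 of 9 higher, and to 1115 to 1616 CPM in KO-8 and 1102 to 1170 CPM in WT-8, with 5 of 10 higher. All calls in both lists were higher in the knockout. Of all genes 1.88% were called higher at 16 weeks and 4.3% at 8 weeks.

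Macrophage markers summed to 172 to 228 CPM in KO-16 and 151 to 195 CPM in WT-16, and to 206 to 217 CPM in KO-8 and 189 to 226 CPM in WT-8, with 0 called of 10 tested at 16 weeks and of 12 at 8 weeks. MHC class II genes summed to 54.6 to 128 CPM in KO-16 and 39.1 to 76.4 CPM in WT-16, and to 82.1 to 130 CPM in KO-8 and 87.3 to 115 CPM in WT-8, with 0 called. Dendritic cell markers summed to 15.1 to 22.2 CPM in KO-16 and 8.31 to 17.1 CPM in WT-16, and to 19.8 to 22.6 CPM in KO-8 and 17.3 to 20.8 CPM in WT-8, with 0 called. T and NK cell markers summed to at most 3.06 CPM in any knockout library and 3.54 CPM in any wild-type library. B cell markers summed to 3.72 to 14.7 CPM in KO-16 and 4.60 to 20.8 CPM in WT-16, and to 4.33 to 7.94 CPM in KO-8 and 4.64 to 9.20 CPM in WT-8. The neutrophil markers Ly6g, Retnlg, Mmp8 and Ngp were at 0 in 10 or more of the 19 libraries. The 8 neutrophil markers summed to 0.830 to 3.08 CPM in KO-16 and 0.181 to 4.30 CPM in WT-16, and to 0.473 to 2.28 CPM in KO-8 and 1.31 to 4.30 CPM in WT-8. None passed the filter at 16 weeks, and of the 2 tested at 8 weeks S100a9 was called lower (edgeR adjusted p = 0.0376). In the fit to all libraries, which called 20.5% of all genes at 16 weeks, 8 of 10 endothelial and 6 of 10 fibroblast markers were higher. Of the 12 macrophage markers that fit called 2 higher and 1 lower. It called 1 of 7 MHC class II genes and 1 of 4 tested dendritic cell markers higher, and 0 neutrophil, T and NK cell or B cell markers. The part of these cell types in the members' levels was not tested.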

How the data were processed

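The authors deposited counts of read pairs for each gene. Per the file headers these were made by featureCounts 1.6.3 with Ensembl 96 on GRCm38, counting pairs on the reverse strand and giving a pair to the gene it overlaps most. The header command carries no option for reads that map to several places, so near copies (Ifit3 and Ifit3b, Mx1 and Mx2, Gbp2 and Gbp3, the OAS genes) may have lost or shared reads, and so may overlapping genes on the same strand (Igtp with Irgm2, Irf9 with Rnf31). Cutadapt 1.16, FastQC, STAR, RSEM and SAMtools are named without a role in the submitters' processing notes. RNA was depleted of ribosomal RNA before stranded library preparation, per the labels' protocols. The 2 files of each 16-week sample were summed.

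CPM are counts over the library total times its TMM factor over all 19 libraries, and RPKM are CPM over the gene length of the files in kilobases. Each time was fitted alone with edgeR 4.0.16 (quasi-likelihood, TMM, filterByExpr) in R 4.3.3, because an earlier analysis that pooled all libraries had unequal spread at the 2 times, and p-values were adjusted over all genes with a threshold of 0.05. The difference of effects used all 19 libraries. The SE of a log2 fold change is its size divided by the root of the F statistic. Members and lists were chosen with earlier results of these data known, so no test over the list was made. Values in every library are given for members past the threshold in either fit and for the most abundant member per length of each role, and fold changes with SE for those past the threshold and the 3 largest in each direction, with other members by mean and SD or range. List genes named are those past the threshold, at most 6 per list and direction. Replicates were numbered in accession order.

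Alternatives were normalization by RLE or by the upper quartile, no filter or 1 CPM in at least 4 libraries, DESeq2 1.42.0, limma-voom with limma 3.58.1 with and without quality weights, all 19 libraries, mitochondrial and ribosomal RNA genes left out, 1 file of each 16-week sample, the 18S share as a covariate, libraries with Y-linked transcripts left out, and each library left out. A fit to the 16-week libraries with no filter for Isg15 and Mx1 was chosen after seeing the data. Tested on simulated data of 12441 genes, the 16-week fit recovered 11.9%, 57.1% and 95.3% of 1.5-, 2- and 4-fold changes with 3 false calls in 108. The 8-week fit, on 15005 genes, recovered 71.2%, 89.6% and 100% with 7 false calls in 178. Limits given for a count of 0 cover counting error only. Python 3.11.15, numpy 2.4.6, pandas 2.3.3 and matplotlib 3.10.9 were used.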

Additional observations from a re-analysis of the deposited data

Results flagged for a closer look

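In 7 of 136 pairs of a member and a group, 1 library stood apart from the rest by Dixon's test at its 95% level, which chance gives in about 1 in 20 pairs, here 6.8. Dhx58 was at 2.73 CPM in replicate 2 of KO-16, where the other 4 libraries had 1.12 to 1.46 CPM. Oas2 was at 4.65 CPM in replicate 5 of KO-16, below 6.47 to 7.16 CPM in the others, and at 9.65 CPM in replicate 5 of WT-16, above 5.49 to 6.07 CPM. Zbp1 was at 0.523 CPM in replicate 4 of KO-8, below 0.817 to 0.855 CPM, and at 0.240 CPM in replicate 4 of WT-8, below 0.596 to 0.670 CPM. Mx1 was at 0.654 CPM in replicate 3 of WT-8, above 0.440 to 0.460 CPM. Bst2 was at 6.78 CPM in replicate 2 of WT-8, above 5.01 to 5.45 CPM.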

How the results depend on the processing

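No paired analysis was possible because the labels number libraries without shared numbers between groups. Members called at 16 weeks were 3 with limma-voom with quality weights (Rsad2, Bst2 and Ifi44), 5 with all 19 libraries, and 0 with the earlier file alone, the 18S covariate or no Y-linked libraries, against 1. Of all genes the same settings called 2514 of 12597, 3181 of 15503, 302 of 10299, 28 of 12597 and 10 of 13228, against 356 of 12597. Leaving out each replicate gave 0 to 2 members and 29 to 1856 of all genes. Members called at 8 weeks were 1 with the 1 CPM filter, DESeq2, limma-voom or its quality weights and 0 with all 19 libraries, against 2. With no filter they were 3 (Rsad2, Ifi44 and Ifi27, while Mx1 had an edgeR adjusted p of 0.0546), and 0 to 5 without each replicate. Of all genes the 1 CPM filter called 1219 of 13849, DESeq2 1349, limma-voom 1223 and its quality weights 1168 of 15173. The fit to all 19 libraries called 31 of 15503 and no filter 1689 of 30405, against 1245 of 15173. Without each 8-week replicate 872 to 1163 genes were called. Pathway genes called at 16 weeks were 4 with no filter or DESeq2, 1 with limma-voom or the earlier file, 10 with quality weights, 12 with all 19 libraries, and 0 with the later file, the 18S covariate or no Y-linked libraries, against 2, and 0 to 7 without each replicate. Under these 16-week settings 27 to 43 pathway genes were tested. Of all genes no filter called 1034 of 29064, DESeq2 1166 of 12597, limma-voom 332 of 12597 and the later file 318 of 11412. At 8 weeks the pathway genes called were 5 of 45 tested with no filter and 0 of 39 with all 19 libraries, against 3 of 39. Leaving out each 8-week replicate gave 0 to 3. Other interferon-stimulated genes called at 16 weeks were 7 with no filter, 5 with DESeq2, 1 with limma-voom, 10 with quality weights, 14 with all 19 libraries, and 0 with the 18S covariate or no Y-linked libraries, against 2, and 0 to 9 without each replicate. Under these 16-week settings 60 to 69 of them were tested. At 8 weeks those called were 19 of 70 tested with no filter and 0 of 65 with all 19 libraries, against 8 of 66. Leaving out each 8-week replicate gave 4 to 13. The counts over all genes under each setting are those given above. Mx2 at 16 weeks had a log2 fold change of 0.090 with quality weights and -0.24 to 0.092 without each replicate, against -0.07, and -0.27 without the Y-linked libraries. Igtp had -0.41 with the 18S covariate and -0.29 to 0.10 without each replicate, against -0.06. The median log2 fold change of the members kept its sign under every alternative run, from 0.23 to 0.42 at 16 weeks and 0.15 to 0.28 at 8 weeks without each replicate. The cause of these moves was not tested. The 0 members called in the difference of effects stayed 0 under every filter, test and left-out library. Of all genes, no filter called 43 of 32638 in that difference, DESeq2 30 of 15503 and quality weights 527 of 15503. Leaving out replicate 1 of KO-16 called 613 of 15511 genes, and leaving out replicate 5 of KO-16 called 114 of 15508. The other settings called 0 genes. Depth limits Cxcl10, Isg15, Mx1, Zbp1, Oas1a and Oasl1 at 16 weeks.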
